A study of Mus musculus with 16 samples.

Results

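Replacement histones are histone variants whose genes give polyadenylated mRNA. The 7 genes described here, H2afz, H2afv, H2afx, H2afy, H3f3a, H3f3b and H1f0, were taken by gene name from the 30214 gene names on a mouse expression array, and all 7 were among the 19367 genes that passed the detection filter. The rule used gene names alone, but the names were chosen with earlier results of these data known. The data came from AML12 cells, a non-tumourigenic line of mouse hepatocytes, infected with a lentiviral vector for a doxycycline-inducible shRNA. The shRNA was either a scramble control or one against eIF6, a factor that binds the large ribosomal subunit and keeps it from joining the small one. All cells, controls included, received doxycycline and then insulin for 1 h. One label gives the insulin as 100 nM and another as 100 mM, and the paper states 100 nM for its protein labelling of AML12 cells. Lysates were separated on sucrose gradients, where mRNA loaded with several ribosomes sinks as polysomes and mRNA with few or no ribosomes stays in the lighter, subpolysomal fractions. This gave 4 groups, scramble subpolysomal, scramble polysomal, eIF6 shRNA subpolysomal and eIF6 shRNA polysomal RNA, with 4 one-colour arrays each. Infected cells had been selected with puromycin, and no group without insulin or without doxycycline was analysed here.

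Most histone mRNA in dividing cells comes from the replication-dependent Hist genes, which are transcribed in S phase. Their mRNAs end in a short stem-loop bound by SLBP instead of a poly(A) tail, and they are degraded when DNA synthesis stops. Replacement histone genes are expressed through the cell cycle and in cells that no longer divide, and their mRNAs are spliced or at least polyadenylated like other mRNAs. Their proteins can enter chromatin outside of replication, through dedicated chaperones and remodelling complexes. H2afx stands between these classes, since its mRNA is known to occur both with a stem-loop end and with a poly(A) tail.

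The array's own probes, whose 60 bases mostly lie near the 3′ end of an mRNA, held part of these mRNA ends. The hexamer AATAAA, the usual signal for cleavage and polyadenylation, was present on the strand of the mRNA in 3 of the 14 probes of the replacement genes, and the variant ATTAAA in 1 more. AATAAA was present in 3 of the 57 probes of Hist genes and in 12.6% of all 39429 probes, and on the opposite strand in none, 2 and 4.03% of these. The 3 of 14 are a share of 21.4%, which is not read here as a property of these genes. The 30 bases around these hexamers are shown so that the signal can be seen in its place, with the hexamer in capitals. For H2afz the probe with ATTAAA lies downstream of the probe with AATAAA and was above background on all arrays, so that the first hexamer does not mark the end of all its mRNA. For H2afv the probe with AATAAA had a mean log2 intensity of 7.27 in scramble subpolysomes and its other probe 14.91. How much H2afv mRNA holds the hexamer was not tested, and the values of H2afv below are means of both probes.
H2afz (probe at mm9 chr3:137529723-137529782, plus strand): ggtggataagctcAATAAAggtcatatccc
H2afv (probe at mm9 chr11:6327229-6327288, minus strand): caaatgcacagaAATAAAgaaactagcact
H3f3b (probe annotated at mm9 chr11:115883275-115883305, minus strand): gtttcctttaaaAATAAAaagtaaacctgg
H2afz (probe at mm9 chr3:137529827-137529886, plus strand): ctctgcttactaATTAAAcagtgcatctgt

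A stem-loop pattern, GGNNCTT followed by NTN and AGNNCC with N for any base, was searched in the same probes on both strands. It was present on the mRNA strand in 6 of the 57 Hist probes and in none of the 14 replacement probes. Among all 39429 probes it was found in 7, and the only one outside the Hist genes belonged to Snrpa. On the opposite strand it was found in 3 of all probes. The single H2afx probe held neither the pattern nor a hexamer, so it does not tell the mRNA forms of H2afx apart. Of the 6 Hist probes, 4 are shown for contrast, with the stem-loop pattern in capitals.
Hist1h3a: gaattaaccaaaGGCTCTTTTCAGAGCCac
Hist1h3g: aaccactttaaaGGCTCTTCTTAGAGCCac
Hist1h4m: ttctcaactaaaGGCCCTTTTCAGGGCCat
Hist2h2bb: ctttacccaaaaGGCTCTTTTCAGAGCCac

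Between 20196 and 24960 probes per array were well above background, none was saturated, and all 14 replacement probes were above background on all 16 arrays. Each of the 4 slides held 1 array of every group. The targeted mRNA, Eif6, fell by 1.05 on the log2 scale in polysomes (SE 0.079, adjusted p = 1.45e-07), while its subpolysomal change was 0.015 (SE 0.079, adjusted p = 0.915). Of 8 hepatocyte markers, 5 were above background on all arrays, among them Hnf4a and Ttr, but Alb was so on 7 arrays and Apoa1 on 3. All 6 stromal markers were above background on all 16 arrays, and their summed level differed between the shRNAs. Its log2 ran from 17.01 to 17.10 in scramble and from 15.87 to 16.18 in eIF6 shRNA subpolysomal RNA, and from 17.31 to 18.07 and from 14.73 to 15.42 in polysomal RNA. The part of this difference in the results below was not tested.

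Each gene was described by 3 differences. Its polysomal change is the mean with eIF6 shRNA minus the mean with scramble over polysomal arrays, its subpolysomal change is that difference over subpolysomal arrays, and its change in translational efficiency is the polysomal minus the subpolysomal change. All are on the log2 scale of quantile normalized intensity, with 4 arrays per group. This normalization gives every array the same distribution, so each change is relative to other mRNAs and a loss common to all is not seen. The paper reports reduced polysomes in eIF6-depleted cells after insulin. A gene was called lower or higher when limma gave it a p under 0.05 after Benjamini-Hochberg adjustment across the whole table of genes. In polysomes 2 of the 7 replacement genes were called lower, where 10.7% of all genes were, and none was called higher, where 11.1% of all genes were. In subpolysomes 3 were called lower and 1 higher, against 12.3% and 11.9% of all genes. No member was called in translational efficiency by limma, where 1.11% of all genes were called lower and 0.403% higher. At an unadjusted p under 0.05 there was 1 member, beside 2419 of all 19367 genes. Without replicate number 1, 2, 3 or 4, 0, 0, 0 and 3 members were called in polysomes and 1, 0, 0 and 3 in subpolysomes. In bulk RNA, fewer cells with an mRNA and less of it per cell cannot be told apart.

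**Figure D1:**
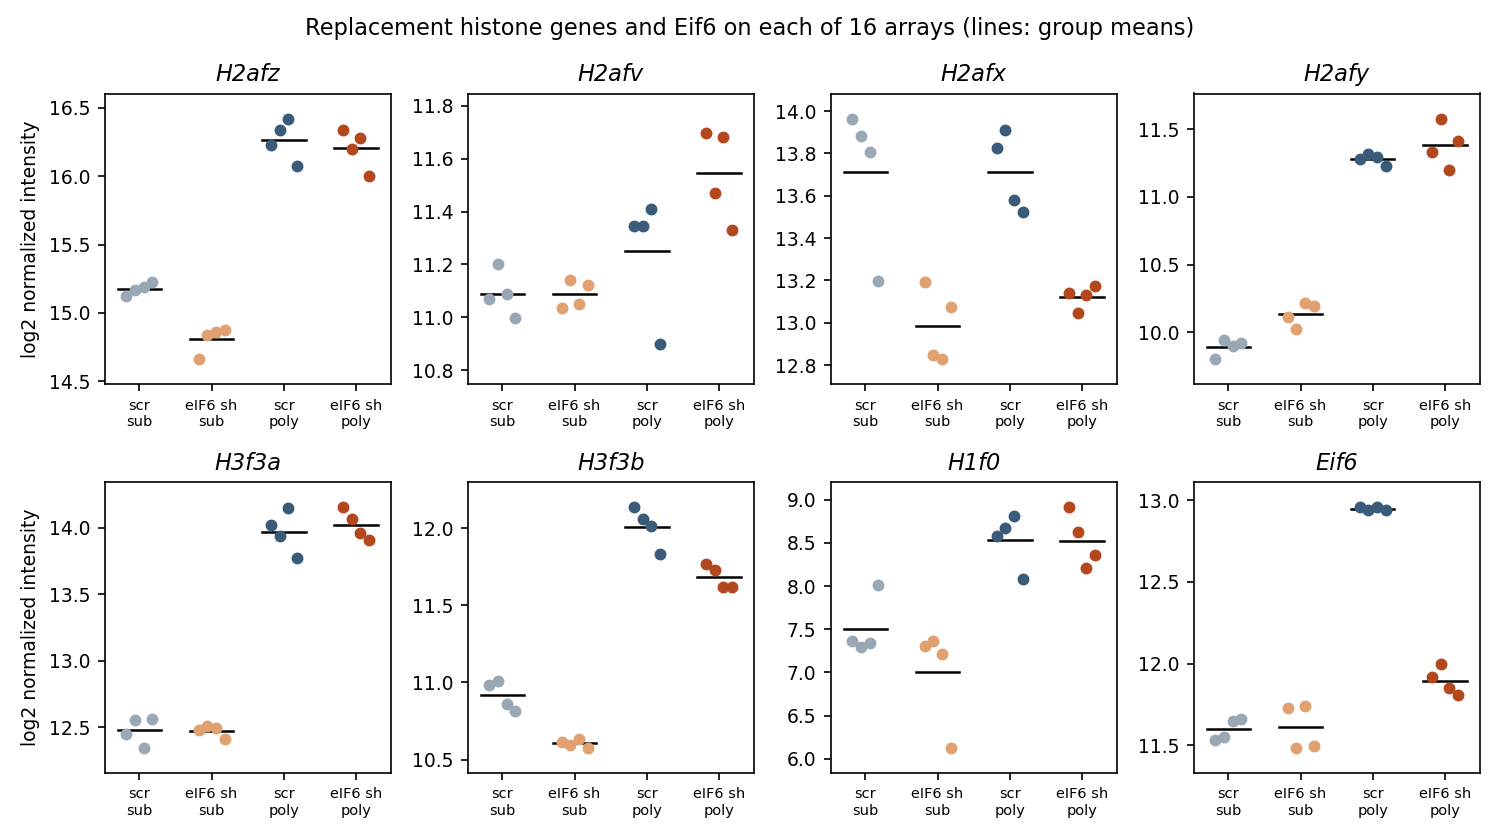
Log2 normalized intensity of the 7 replacement histone genes and of Eif6 (vertical axes, each panel with its own range) on the 4 arrays of each group, with group means as lines; scr, scramble; eIF6 sh, eIF6 shRNA; sub, subpolysomal; poly, polysomal. H2afx and H3f3b were lower with eIF6 shRNA in both fractions without overlap, and H2afz was so in subpolysomes only, while 1 array stood apart from the other 3 for H2afv in scramble polysomes and for H1f0 in both subpolysomal groups.

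H2A.Z, a variant of H2A placed at promoters by the SRCAP and p400 complexes, is encoded by H2afz and H2afv. The mRNA of H2afz fell in subpolysomes and not detectably in polysomes. Its log2 intensity on the scramble subpolysomal arrays was 15.12, 15.16, 15.19 and 15.23, and on those of eIF6 shRNA 14.66, 14.84, 14.86 and 14.87. In polysomes it was 16.23, 16.34, 16.42 and 16.08 with scramble and 16.34, 16.20, 16.28 and 16 with eIF6 shRNA. The subpolysomal groups therefore did not overlap and the polysomal groups did. The share of all genes whose groups do not overlap is not given, here or for the genes below, so a lack of overlap only describes the values. The subpolysomal change of H2afz was -0.37 (SE 0.094, 1.29-fold lower, adjusted p = 0.0103), and it was below 0 on each of the 4 slides. Without replicate number 1, 2 or 3 it was -0.34, -0.38 and -0.38 and did not pass (adjusted p = 0.0878, 0.0778 and 0.0562), nor did it with 75th percentile scaling (-0.27, adjusted p = 0.146). Its polysomal change was -0.06 (95% interval -0.26 to 0.14). The change of H2afz in translational efficiency was 0.31 (95% interval 0.02 to 0.59), above 0 on all 4 slides, but it did not pass the adjustment (adjusted p = 0.354). The 2 probes of H2afz gave similar values, with subpolysomal changes of -0.38 and -0.36 and efficiency changes of 0.33 and 0.28.

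H2afv encodes the other H2A.Z protein, which differs from the product of H2afz at a few positions. Its log2 intensity in polysomes was 11.35, 11.35, 11.41 and 10.90 with scramble and 11.70, 11.47, 11.68 and 11.33 with eIF6 shRNA. In subpolysomes it was 11.07, 11.20, 11.09 and 10.998 with scramble and 11.03, 11.14, 11.05 and 11.12 with eIF6 shRNA, so that both pairs of groups overlapped. The polysomal change of H2afv was 0.29 (SE 0.11, adjusted p = 0.0859) and the subpolysomal change -0.0028 (95% interval -0.25 to 0.24). Without replicate number 4, which holds the low scramble value of 10.90, the polysomal change was 0.25 and passed the test (adjusted p = 0.039). The efficiency change of H2afv was 0.30 (95% interval -0.05 to 0.64, adjusted p = 0.499).

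H2A.X is the H2A variant that is phosphorylated around DNA double-strand breaks. Its mRNA had the lowest fitted change of the 7 genes in both fractions. In subpolysomes H2afx gave 13.96, 13.88, 13.81 and 13.20 with scramble and 13.19, 12.85, 12.83 and 13.08 with eIF6 shRNA. In polysomes it gave 13.83, 13.91, 13.58 and 13.53 with scramble and 13.14, 13.05, 13.13 and 13.17 with eIF6 shRNA. Neither pair of groups overlapped, although the lowest scramble and the highest eIF6 shRNA value in subpolysomes, 13.20 and 13.19, lay next to each other. The polysomal change of H2afx was -0.59 (SE 0.15, 1.5-fold lower, adjusted p = 0.0109) and its subpolysomal change -0.73 (SE 0.15, 1.65-fold lower, adjusted p = 0.00273). Both were below 0 on 4 of 4 slides. The efficiency change was 0.14 (95% interval -0.32 to 0.60). The polysomal call was lost without replicate number 1, 2 or 3, with adjusted p of 0.0711, 0.116 and 0.0569 at changes of -0.56, -0.50 and -0.64. The subpolysomal call was lost without number 2 or 3, with adjusted p of 0.0506 and 0.0528 at changes of -0.62 and -0.64.

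MacroH2A1, encoded by H2afy, carries a large macro domain besides its histone part and is enriched on the inactive X chromosome. It was the only one of the 7 genes called higher in either fraction. H2afy gave 9.80, 9.94, 9.90 and 9.92 in scramble subpolysomes and 10.12, 10.03, 10.21 and 10.20 with eIF6 shRNA, without overlap. In polysomes it gave 11.28, 11.31, 11.30 and 11.23 with scramble and 11.33, 11.58, 11.20 and 11.41 with eIF6 shRNA, and these overlapped. The subpolysomal change of H2afy was 0.25 (SE 0.083, 1.19-fold higher, adjusted p = 0.0418) and its polysomal change 0.10 (95% interval -0.08 to 0.28). The subpolysomal call lay close to the threshold and was made under 7 of 20 alternative settings. Without replicate number 1, 2, 3 or 4 the change was 0.23, 0.30, 0.23 and 0.24 and did not pass (adjusted p = 0.236, 0.0595, 0.168 and 0.0891). The efficiency change was -0.15 (95% interval -0.40 to 0.10).

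The 3 probes of H2afy did not move alike. They are annotated to transcript variants of the gene on the minus strand of mm9 chromosome 13, and each holds a reading frame without a stop codon over its length. They are shown because the polysomal change of the gene is a mean over unequal values.
H2afy probe 1 (chr13:56184528-56184587): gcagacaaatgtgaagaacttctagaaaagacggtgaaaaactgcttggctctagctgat
H2afy probe 2 (chr13:56189613-56189672): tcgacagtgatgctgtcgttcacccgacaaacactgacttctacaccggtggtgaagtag
H2afy probe 3 (chr13:56205682-56205741): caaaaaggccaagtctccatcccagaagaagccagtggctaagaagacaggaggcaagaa
Their polysomal changes were -0.18 (SE 0.11), 0.33 (SE 0.092) and 0.15 (SE 0.085), and their subpolysomal changes 0.11, 0.27 and 0.37. The log2 ratio of probe 1 to probe 2 within an array, which no scaling of the arrays can alter, was lower by 0.52 with eIF6 shRNA in polysomes. Its 4 values did not overlap those of scramble, which gives the smallest p of a two-sided exact permutation test of 4 against 4 arrays (0.0286). Adjusted over the 22 such tests made, 18 between probes of a gene and 4 between genes, this p was 0.0629. As p cannot be smaller, no ratio could pass this adjustment on its own values. Of the 18 tests between probes, 6 reached the smallest p.

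**Figure D2:**
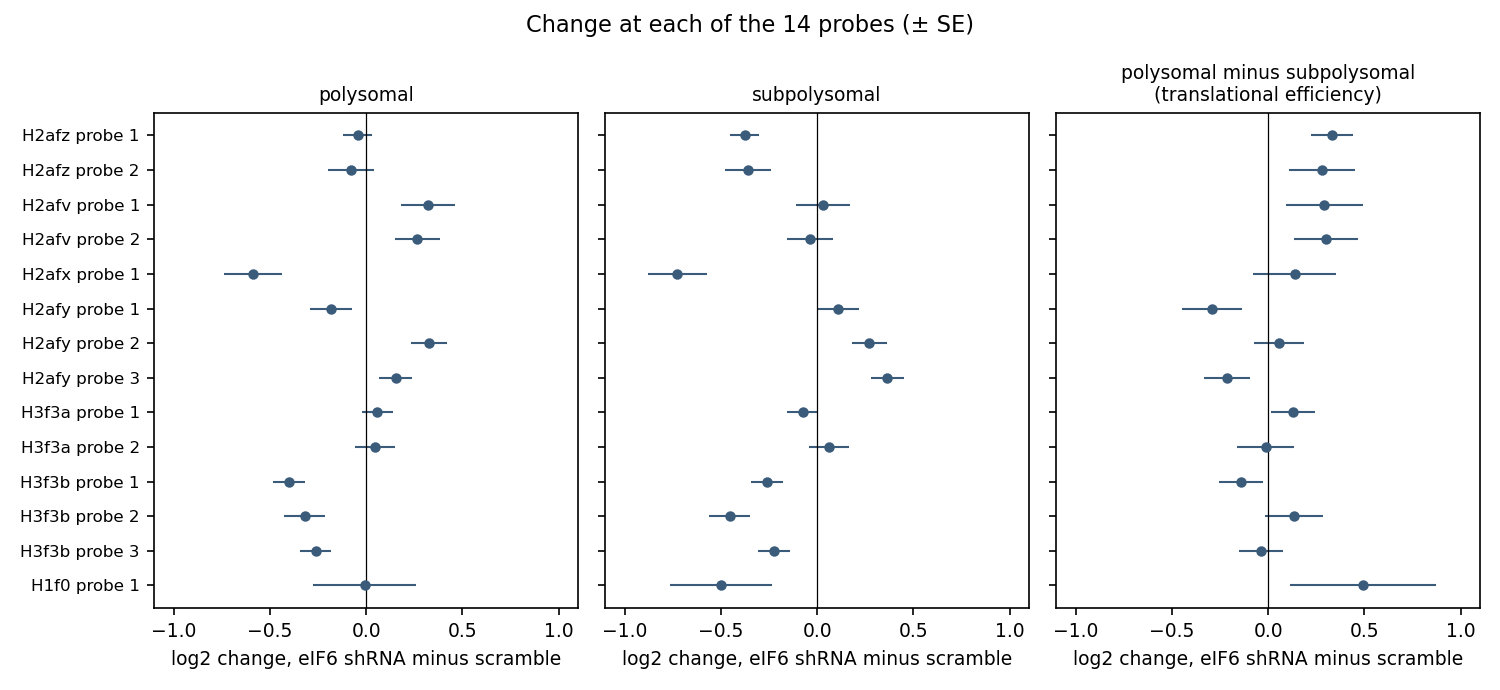
Log2 change with eIF6 shRNA (horizontal axes, points with SE bars, 4 arrays per group) at each of the 14 probes of the 7 genes in polysomal RNA, in subpolysomal RNA and in translational efficiency. The 2 probes of H2afz in subpolysomes and the 3 probes of H3f3b in both fractions, where these genes were called, lay below 0, whereas the polysomal changes of the 3 H2afy probes ran from -0.18 to 0.33.

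H3f3a and H3f3b encode the same protein, H3.3, which the HIRA complex places in transcribed genes and DAXX with ATRX at repeats. Relative to other mRNAs, that of H3f3b fell in both fractions, and that of H3f3a did not change detectably in either. With spike-in scaling the polysomal change of H3f3a was -0.41 (adjusted p = 0.664 by limma), where the median of all genes was -0.48. H3f3b gave 12.13, 12.06, 12.02 and 11.83 in scramble polysomes and 11.77, 11.73, 11.62 and 11.62 with eIF6 shRNA. In subpolysomes H3f3b gave 10.98, 11.01, 10.86 and 10.82 with scramble and 10.61, 10.59, 10.64 and 10.58 with eIF6 shRNA. Every array with eIF6 shRNA was below every scramble array of its fraction. The polysomal change of H3f3b was -0.33 (SE 0.079, 1.25-fold lower, adjusted p = 0.00727), the subpolysomal change -0.31 (SE 0.079, 1.24-fold lower, adjusted p = 0.00997), and both were below 0 on 4 of 4 slides. Its efficiency change was -0.01 (95% interval -0.26 to 0.23). All 3 probes of H3f3b were below 0 in both fractions, from -0.40 to -0.26 in polysomes and from -0.45 to -0.22 in subpolysomes. Of these probes, 2 are annotated to only 31 and 21 bases of the genome. As for H2afx, the polysomal call of H3f3b was lost without replicate number 1, 2 or 3 (adjusted p = 0.0713, 0.0703 and 0.0961), with changes between -0.33 and -0.30. Its subpolysomal call was lost without the same numbers (adjusted p = 0.0888, 0.119 and 0.0596), with changes between -0.34 and -0.28.

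H3f3a gave 14.02, 13.94, 14.15 and 13.77 in scramble polysomes and 14.15, 14.06, 13.96 and 13.91 with eIF6 shRNA. In subpolysomes it gave 12.45, 12.56, 12.35 and 12.57 with scramble and 12.48, 12.51, 12.50 and 12.41 with eIF6 shRNA. The groups overlapped in both fractions. Its polysomal change was 0.05 (95% interval -0.14 to 0.24), its subpolysomal change -0.01 (95% interval -0.20 to 0.19) and its efficiency change 0.06 (95% interval -0.21 to 0.33). H3f3a is known to have processed pseudogenes, whose transcripts a probe may share.

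Whether the genes of a protein pair moved apart was tested on ratios within an array, with the unscaled signals. Each gene enters as the mean log2 of its probes, which are unequally bright. In scramble polysomes the normalized means were 7.31, 12.53 and 16.19 for the H3f3b probes and 14.10 and 13.84 for those of H3f3a. The level of a ratio therefore does not tell which gene has more mRNA. The log2 ratio of H3f3b to H3f3a in polysomes lay between -2.30 and -2.08 with scramble and between -2.56 and -2.45 with eIF6 shRNA, a difference of -0.36. In subpolysomes this ratio lay between -1.58 and -1.29 and between -1.76 and -1.71, a difference of -0.31. The ratio of H2afz to H2afv was lower with eIF6 shRNA by 0.31 in polysomes and by 0.31 in subpolysomes. In all 4 cases the shRNAs did not overlap and the exact permutation p was 0.0286, the smallest possible, or 0.0629 after adjustment over the 22 tests. None of these 4 ratios therefore passed the threshold after adjustment. This test could not have decided otherwise from these ratios alone, since p cannot be smaller with 4 against 4 arrays. The adjusted value then depends on how many of the 22 tests reach that limit, which 10 did. Of the 18 tests between probes of the same gene, 6 reached the same smallest p, with differences from -0.52 to -0.10. A ratio between genes can thus also reflect unequal probes, and the part of this was not tested. These ratios leave undecided whether the genes of a pair changed unequally, and they do not show which of them changed.

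Histone H1.0, encoded by H1f0, is the linker histone that accumulates in differentiated and resting cells. H1f0 gave 8.58, 8.67, 8.81 and 8.08 in scramble polysomes and 8.91, 8.63, 8.21 and 8.36 with eIF6 shRNA, with overlap. In subpolysomes it gave 7.37, 7.29, 7.34 and 8.01 with scramble and 7.31, 7.36, 7.22 and 6.13 with eIF6 shRNA. Replicate number 4 stood apart in both subpolysomal groups, upwards with scramble and downwards with eIF6 shRNA. The subpolysomal change of H1f0 was -0.50 (SE 0.27, adjusted p = 0.200) with all arrays and -0.04 without replicate number 4. Likewise its efficiency change of 0.49 (95% interval -0.32 to 1.30) became -0.06, so neither value can be told from 0 with these arrays. The polysomal change was -0.01 (95% interval -0.58 to 0.56).

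The replacement genes differed from the Hist genes most in how their signal was divided between fractions. In scramble cells, 5 of the 7 replacement genes had higher signal in polysomal than in subpolysomal RNA and none lower, against 31.7% and 28.4% of all genes. The difference was 1.49 for H3f3a, 1.39 for H2afy, 1.09 for H3f3b and H2afz and 1.03 for H1f0, which corresponds to 2.04-fold to 2.81-fold. H2afv (0.16, adjusted p = 0.244, but 0.25 and called without replicate number 4, adjusted p = 0.018) and H2afx (-0.0014, adjusted p = 0.995) did not pass the test. In eIF6 shRNA cells 6 of 7 were called higher and none lower, against 32.1% and 28.7% of all genes. Here the difference was 1.55 for H3f3a, 1.52 for H1f0, 1.40 for H2afz, 1.24 for H2afy, 1.08 for H3f3b and 0.46 for H2afv, with 0.14 for H2afx (adjusted p = 0.459). Both groups of arrays enter the efficiency change as well, so these values and that change are not independent. For H2afz, H2afy, H3f3a, H3f3b and H1f0 the subpolysomal and polysomal arrays of a shRNA did not overlap, while those of H2afv overlapped in scramble cells only and those of H2afx in both. Of 7 other variant histone genes tested, 3 were called lower and 2 higher in polysomal RNA of scramble cells (median -0.13). With eIF6 shRNA 4 were called lower and 2 higher (median -0.69), so a higher polysomal signal was not common to all variant histone genes.

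Of the 49 Hist genes on the array 47 were tested. In scramble cells 27 of them were called lower in polysomal than in subpolysomal RNA and 4 higher, with a median of -0.71 and a highest value of 0.66. Each of the 5 called replacement genes exceeded all 47 Hist genes there, whereas H2afv exceeded 41 and H2afx 36. In eIF6 shRNA cells 15 Hist genes were called lower and 14 higher, with a median of -0.12. For all genes the medians were 0.04 and 0.03. Scaling decided the sign of these differences. With spike-in RNA as the reference the median of all genes was 1.52 in scramble and 1.31 in eIF6 shRNA cells, and with each fraction normalized apart it was 1.38 and 1.41. The median of the Hist genes was then above 0 (0.66 and 1.07, and 0.47 and 1.16), and so were H2afv and H2afx in scramble cells (1.80 and 1.94 with the spike-in, both called). With the spike-in 13320 of all 19367 genes were called higher there, so these calls are not particular to H2afv and H2afx. Relative to the median of all genes, the 5 scalings gave from -0.92 to -0.74 for the Hist median in scramble cells, from 1.42 to 1.90 for H3f3a, from 0.88 to 1.06 for H2afz and from -0.07 to 0.41 for H2afx.

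**Figure D3:**
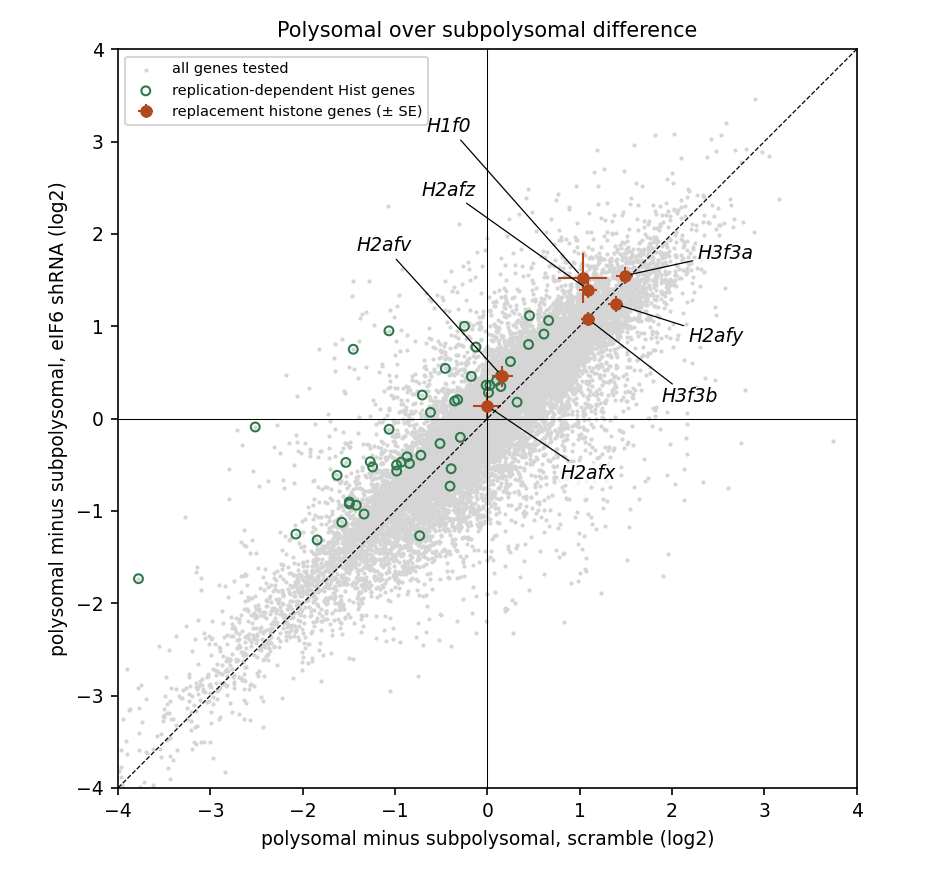
Log2 difference of polysomal minus subpolysomal signal in scramble (horizontal axis) and eIF6 shRNA cells (vertical axis) for all genes tested (grey, 50 of 19367 lie outside the axes), the 47 Hist genes (green circles) and the 7 replacement genes (red, with SE). The dashed line marks equal values; 5 replacement genes lie to the right of every Hist gene, and H2afv and H2afx lie among them.

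With eIF6 shRNA, 34 of 47 Hist genes were called lower in subpolysomes and none higher (72.3% and none, beside 12.3% and 11.9% of all genes), with a median of -0.69. In polysomes 5 were called lower and 4 higher (10.6% and 8.51%, beside 10.7% and 11.1% of all genes), with a median of -0.16. The Hist genes had a median efficiency change of 0.48, and 9 were called higher and none lower (19.1% and none, beside 0.403% and 1.11% of all genes). Without the 3 Hist genes that were not above background on any array of some group, these counts were 31 lower in subpolysomes and 7 higher in efficiency of 44. Over all genes the medians were 0.03, 0.02 and 0.02. All 6 Hist genes whose probes show the stem-loop pattern were called lower in subpolysomes, with changes from -1.29 to -0.29. The labelling of this array type starts at poly(A), and its part in the Hist values was not tested.

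The replacement genes had median changes of -0.31 in subpolysomes, -0.01 in polysomes and 0.14 in efficiency. H2afx was the member nearest to the middle of the Hist genes in subpolysomes, with 22 Hist genes below it and 25 above. In polysomes, where H2afx was called lower, only 2 Hist genes had a lower value. H2afy, H2afv and H3f3a exceeded 45, 44 and 44 of the 47 Hist genes in subpolysomes. Relative to the median of all genes, the subpolysomal change stayed between -0.77 and -0.73 for H2afx, between -0.34 and -0.32 for H3f3b and between -0.46 and -0.31 for H2afz over 5 scalings. Not all calls stayed. With 75th percentile scaling H2afz (-0.27, adjusted p = 0.146) and H2afy (0.23, adjusted p = 0.0748) were no longer called in subpolysomes. With the spike-in RNA, which shifted the median of all genes to -0.48 in polysomes and -0.24 in subpolysomes, no member was called in either fraction.

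**Figure D4:**
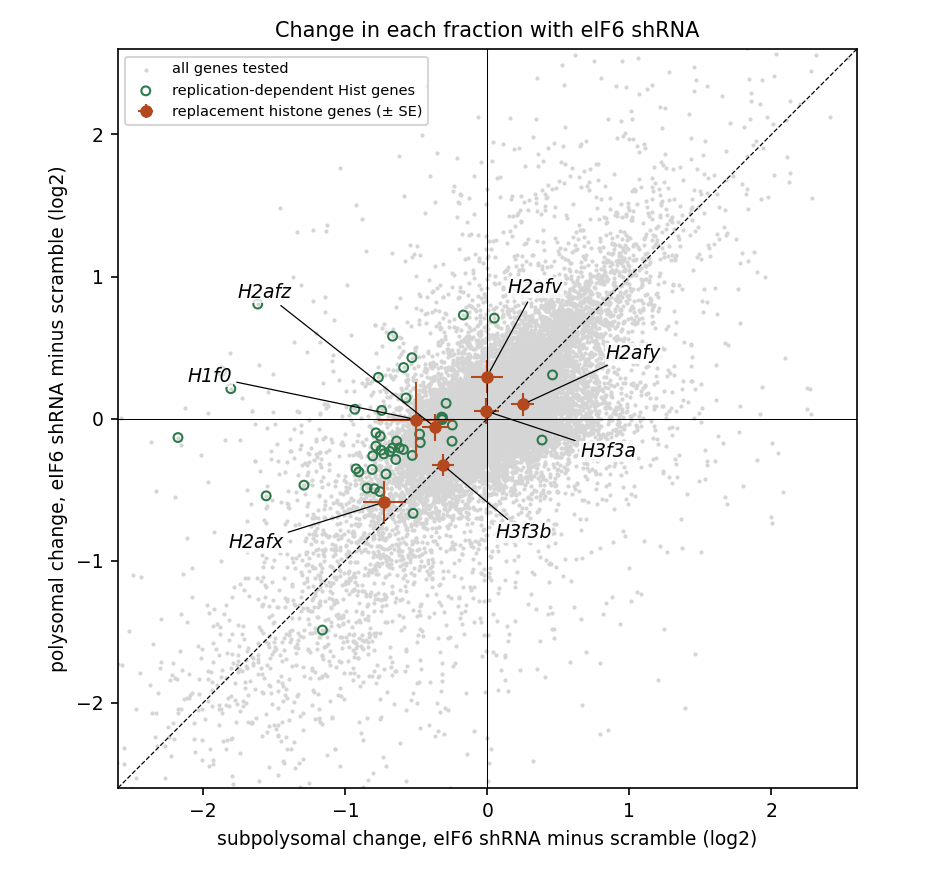
Log2 change with eIF6 shRNA in subpolysomal (horizontal axis) and polysomal RNA (vertical axis) for all genes tested (grey, 139 of 19367 lie outside the axes), the 47 Hist genes (green circles) and the 7 replacement genes (red, with SE). On the dashed line both changes are equal and efficiency does not change; H3f3b and H2afx lie near it below 0, and most Hist genes lie to the left of it.

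Among other variant histone genes, 7 of 8 on the array were tested, and 2 were called lower and 1 higher in polysomes, 2 lower in subpolysomes and 1 lower in efficiency. These are 28.6%, 14.3%, 28.6% and 14.3% of so few genes, beside 10.7%, 11.1%, 12.3% and 1.11% of all genes. H2afy2, which encodes macroH2A2, fell by 0.81 in polysomes (SE 0.13, adjusted p = 0.000198) with a subpolysomal change of 0.05, and its efficiency change was -0.87 (SE 0.18, adjusted p = 0.0234). That efficiency call was made under 10 of 20 alternatives. It was lost with the slide as a block (adjusted p = 0.0508), where arrays of the same slide correlated with a median of 0.13 in their deviations from the group means (over 0.1 in 14 of 24 pairs), and without 1 replicate number its adjusted p was between 0.0777 and 0.19. H2afy3 fell by 2.45 in polysomes and by 1.96 in subpolysomes, where only 2 of 4 eIF6 shRNA arrays were above background. H2afj fell by 0.33 in subpolysomes (adjusted p = 0.00339, up to 0.0587 with a replicate number left out), with a polysomal change of -0.08. Cenpa, the H3 variant of centromeres, had changes of -0.27 and -0.46 that did not pass (adjusted p = 0.311 and 0.0561). H2afb1 was called higher in polysomes (0.93, adjusted p = 0.0093) and was not above background on any subpolysomal array. H1fx, above background on 3 scramble polysomal arrays and on 1 array of each eIF6 shRNA group, and H1foo were called in none of the 3 changes.

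Of 21 genes for factors that place or remove variants, 1 was called higher in polysomes (4.76%), and in subpolysomes 3 were called lower (14.3%) and 1 higher (4.76%), beside the 11.1%, 12.3% and 11.9% of all genes. Hira, a chaperone of H3.3, fell by 0.43 in subpolysomes (adjusted p = 0.0288) with a polysomal change of -0.15. Daxx and Atrx, which act together on H3.3, had subpolysomal changes of 0.0070 and -0.31 and polysomal changes of -0.13 and 0.08, none of which passed. For H2A.Z, Srcap, the ATPase of its deposition complex, had changes of 0.33 in polysomes and 0.04 in subpolysomes, and Anp32e, a chaperone that removes H2A.Z, rose by 0.38 in subpolysomes (adjusted p = 0.0274). The subpolysomal change of Anp32e was -0.01 when its brighter probe stood for the gene. Ino80, the ATPase of another remodeller, fell by 0.79 in subpolysomes. Kat5, the acetyltransferase of the p400 complex, rose by 0.26 in polysomes (adjusted p = 0.0321), a value of -0.19 with the spike-in scaling. The call of Ino80 was kept with each replicate number left out in turn, whereas the adjusted p rose to 0.125 for Hira, 0.18 for Anp32e and 0.276 for Kat5.

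None of 11 genes for histone mRNA 3′ end processing and decay was called by limma in polysomes, subpolysomes or efficiency. At an unadjusted p under 0.05 there were 2, 1 and 1, beside 6131, 6911 and 2419 of all 19367 genes. Slbp, which binds the stem-loop, had a polysomal change of -0.29 (SE 0.10, adjusted p = 0.0594) and a subpolysomal change of -0.07. Of 9 genes for chromatin assembly at replication, Asf1b, a chaperone of H3 and H4, fell by 0.70 in polysomes and by 0.38 in subpolysomes, and Nap1l4 rose by 0.33 in subpolysomes. Of 18 genes for DNA replication in S phase, 3 were called lower in polysomes (16.7%) and 2 in subpolysomes (11.1%), beside 10.7% and 12.3% of all genes. None was called higher, beside 11.1% and 11.9% of all genes. These counts are not read here as a change of the list. Tk1, thymidine kinase, fell by 0.53 in polysomes, and Ccne1, cyclin E1, fell by 0.79 in subpolysomes. With a replicate number left out in turn, the adjusted p of these subpolysomal changes rose to 0.0642 for Asf1b, 0.297 for Nap1l4 and 0.128 for Ccne1, and the polysomal calls of Asf1b and Tk1 were kept.

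The Hist genes with the most extreme called changes were Hist1h2ac, Hist1h2ae, Hist1h2be and Hist2h2bb. Hist2h2bb fell by 1.49 in polysomes and Hist1h2be rose by 0.73 there (adjusted p = 2.7e-06 and 0.000278). Hist1h2ac fell by 2.18 in subpolysomes (adjusted p = 9.62e-06), and its probe was not well above background on any eIF6 shRNA polysomal array. Hist1h2ae was not well above background on any eIF6 shRNA subpolysomal array, where it was at least 2.65-fold lower than with scramble (adjusted p = 2.08e-05).

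The pattern of each member over the 16 arrays was compared with that of 19337 other genes, as the root mean square (RMS) difference of log2 values centred on the gene's mean. The nearest named genes were Myl6 for H2afz (RMS 0.087), Pnrc2 for H2afv (0.0788), Foxf2 and Rnd3 for H2afx (0.127 and 0.143), Tmem59 and Apip for H2afy (0.0817 and 0.082), Gm12657 for H3f3a (0.0823), Uchl4 and Ppp1r2 for H3f3b (0.0734 and 0.0795) and Pard6b for H1f0 (0.25). The nearest of so many genes is nearly bound to be closer than the nearest of the few other members, so the ranks of members are only listed. H3f3b was the member nearest to H2afz, at rank 70 of the genes, and H2afz the one nearest to H3f3b and to H1f0, at ranks 144 and 66. For H2afy it was H3f3a at rank 252, and for H3f3a it was H2afy at rank 139. For H2afx it was H2afv at rank 4416, and for H2afv it was H2afx at rank 8921.

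RefSeq promoter sequences, 300 bases around a gene's start in the GRCm38.p6 build, matched 6 of the 7 members by current or older symbol and lacked H2afx. The CCAAT box, searched as CCAAT on both strands, was present in 4 of the 6, with 4 copies each in H2afv and H3f3b, 3 in H2afz and 1 in H3f3a. It was present in 37.4% of all 32851 promoters and in 85.7% of 63 Hist promoters. TATAAA on either strand was present in 1 of the 6, that of H3f3b, in 13.6% of all promoters and in 55.6% of the Hist promoters. H2afy and H1f0 held neither. The 6 promoters had a median of 31.5 CG pairs, against 11 in Hist and 7 in all promoters.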

How the data were processed

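RNA of pooled polysomal and of pooled subpolysomal gradient fractions was hybridized on one-colour Agilent mouse arrays, 4 per group. The authors deposited scanner intensities per spot, background-corrected by Feature Extraction (10.7.7.1 per the submitters' notes, 10.7.3.1 in the headers) and not normalized between arrays, and a log2 table quantile normalized over the arrays, whose columns all had a median of 4.636 and correlated with the log2 intensities at 0.995 to 1.000. Probe names and mm9 coordinates are those of the deposited files. The replicates are biological per the methods.

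Outlier spots (2132 over all arrays) were left out and spots of a probe averaged. A probe was kept when flagged well above background by the scanner software on 2 or more arrays of any group. Log2 intensities of the 25262 kept probes were quantile normalized, averaged per gene name and fitted with limma 3.58.1 (R 4.3.3), with 4 group means, Benjamini-Hochberg adjustment and a threshold of 0.05. Arrays give no counting error, and their number limits the precision. On simulated data with 200 of 19338 genes changed in polysomes, the polysomal comparison found 86% of changes of 1.5 and 57% of changes of 0.75 (log2), and the efficiency comparison 71% and 27%. Unchanged genes called were 9 and 3. In the real polysomal comparison a larger share was called (10.7% lower and 11.1% higher), so these rates need not carry over. Smaller changes, such as those of most members, were not simulated. A gene with no array of a group above background is given a bound. Probes of Hist and other gene families may share signal.

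The members and gene lists (other variant histones, deposition of variants, replication-coupled assembly, 3′ processing and decay, S phase, cell type markers) were chosen with earlier results of these data known. Named are all members with every probe, Eif6, the tested other variant histones, 6 genes of known role, the called genes with the most extreme change per list, and the 2 nearest genes per member, of which unnamed probes are not printed. Alternatives were 75th percentile, spike-in (8 probes), unfiltered and within-fraction normalization, normexp (offset 50), 3 filters, the brightest probe, the authors' table, slide or replicate number in the model and each replicate number left out. Leaving out slides and the ratios within arrays were added after the data were seen. Figures were drawn with matplotlib 3.10.9.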

Additional observations from a re-analysis of the deposited data

Results flagged for a closer look

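In 28 groups of 4 arrays, 7 genes in 4 groups each, 3 held an array that stood far from the other 3, where chance gives about 1 such group in 20. H2afv read 10.9 on scramble polysomal replicate 4, below the other 3. H1f0 read 8.01 on scramble subpolysomal replicate 4, above the other 3, and 6.13 on eIF6 shRNA subpolysomal replicate 4, below the other 3. These 3 arrays lay on different slides.

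The change with eIF6 shRNA differed between polysomes and subpolysomes, as tested by the efficiency change itself, in 6 of the genes named. It was -1.07 for Eif6 (adjusted p = 0.000145), -0.87 for H2afy2, 2.04 for Hist1h2ac, 2.2 for Hist1h2ae, 0.9 for Hist1h2be and 0.82 for Hist1h3g (adjusted p = 0.0405), whose probe is shown for its stem-loop. Hist1h2ac was not above background on any eIF6 shRNA polysomal array and Hist1h2ae on none of the eIF6 shRNA subpolysomal arrays, so their values depend on signals near background. Without 1 replicate number the adjusted p of Eif6 stayed at 0.0224 or lower, while that of Hist1h2ac, Hist1h2ae and Hist1h2be rose to 0.133, 0.0685 and 0.155. No replacement histone gene was among them.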

How the results depend on the processing

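Of 700 values of the 7 genes over 20 alternatives, 612 kept their direction and their side of the threshold, 41 lost a call, 6 gained one and 41 changed sign, of which 2 were called. The fold between fractions of H2afz, H2afy, H3f3a, H3f3b and H1f0 passed the test in all 20. With spike-in scaling and with quantiles within each fraction, 97.1% and 94.6% of all calls in scramble cells were higher. In eIF6 shRNA cells these shares were 95.9% and 94.8%, so passing under those settings says little about these genes. Of 493 values of other named genes 389 kept both and 102 lost the call. With 75th percentile scaling 2 members and 5 list genes were called in subpolysomes, the Hist medians between fractions were -1.20 and -0.61 (scramble, eIF6 shRNA), subpolysomal changes were 0.0346 (H2afv) and 0.0278 (H3f3a), and the scramble fraction differences were -0.0588 (H2afv) and 0.0747 (H2afx). With spike-in scaling 0 members were called in polysomes and 0 in subpolysomes, and 2, 1 and 0 list genes in polysomes, subpolysomes and efficiency. Polysomal changes were then -0.19 (H2afv), -0.36 (H2afy), -0.41 (H3f3a), -0.19 (Kat5) and -0.64 (Hist median), the subpolysomal change of H2afy -0.0482, efficiency changes -0.0568 (H2afx) and -0.16 (H3f3a), and fraction differences 1.94 (H2afx), 0.66 (Hist, scramble) and 1.07 (Hist, eIF6 shRNA). With quantiles within each fraction they were 1.78, 0.47 and 1.16, with 64 list genes called in each shRNA, and the efficiency change of H3f3b was 0.0002. Normexp gave 0.0146 (H3f3a, subpolysomal), 0.0042 (H3f3b, efficiency), 0.055 (H2afx, scramble fractions) and -0.37 (Hist, scramble fractions). The brighter probe gave -0.0135 for Anp32e and 2 list genes called in efficiency, the values normalized by the authors a difference of 0.0003 for H2afx between scramble fractions, and the slide block 0 list genes in efficiency. The share of calls that were higher was 8.74%, 10.1% and 7.14% with spike-in scaling in polysomes, subpolysomes and efficiency, against 50.9%, 49.0% and 26.6%, and 12.3% in efficiency at the 75th percentile. The cause of these shifts was not tested. Leaving out a replicate number or a slide, members called ranged from 0 to 3 in each fraction, list genes called from 2 to 16 in subpolysomes and 0 to 0 in efficiency, polysomal changes from -0.0286 to 0.13 (H3f3a) and -0.19 to 0.19 (H1f0), subpolysomal changes from -0.0509 to 0.052 (H2afv) and -0.058 to 0.0427 (H3f3a), efficiency changes from -0.0188 to 0.19 (H3f3a), -0.0611 to 0.0372 (H3f3b) and -0.0618 to 0.81 (H1f0), and the scramble fraction difference of H2afx from -0.13 to 0.0917. Same-numbered arrays correlated from -0.21 to 0.41 (median -0.01, 3 of 24 pairs over 0.1), and 3 of 16 arrays matched their own number best. Pairs that shared neither number nor slide reached at most 0.14. Per the methods, subpolysomal and polysomal RNA were pooled from fractions of a gradient, so same-numbered fractions may be paired. These correlations cannot decide that, and the main fit left such pairing out. With the replicate block 2 members were called in polysomes and 3 in subpolysomes, H2afy being lost at 0.25 (adjusted p = 0.064). With 4 arrays per group, the narrowest 95% interval of a polysomal change among the 7 genes, that of H3f3b, ran from -0.50 to -0.16 and the widest, that of H1f0, from -0.58 to 0.56.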
